A study of Penicillium oxalicum with 10 samples.

Results

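The genes described here are 31 of the 9859 genes of the mould Penicillium oxalicum, chosen because their annotation names an enzyme that removes reactive oxygen or repairs its effects on thiols. They were found by text: a product description or KEGG Orthology name holding catalase, superoxide dismutase, peroxiredoxin, thioredoxin, glutathione S-transferase, glutathione peroxidase, glutathione reductase, glutaredoxin or cytochrome c peroxidase. The text matched 32 genes, and a Fe-Mn superoxide dismutase (PDE_00326) was left out by the rule. All 31 carry the description hypothetical protein, so each name comes from the KEGG match alone and no activity of the products was measured.

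Messenger RNA of mycelia was counted by sequencing in 10 libraries, 1 from each of 9 strains and 1 from the wild type, labelled M12. The 9 strains are labelled as lacking a regulator gene: stuA, swi6, abaA or wetA, or one of the flb genes flbA, flbC, flbB, flbE and flbD. All cultures began as conidia in modified Czapek medium with 2% glucose, were grown for 20 h at 30 °C and were then kept for 48 h in new medium. In Aspergillus the products of the flb genes act before the conidiation activator BrlA, AbaA and WetA act after it, and StuA shapes the spore-bearing structure. The labels do not say which of the proteins called Swi6 is meant, nor how many transformants stand behind a strain. No strain has a replicate, so nothing below has a replicate error or a p-value. Intervals given after a fold are 95% counting intervals from the reads, which leave out the spread between cultures.

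Superoxide dismutases turn superoxide into hydrogen peroxide. Catalases break hydrogen peroxide down directly, while peroxidases and peroxiredoxins reduce it with electrons that reach them from NADPH through thioredoxin, glutathione or, for cytochrome c peroxidase, from the respiratory chain. Glutathione S-transferases couple glutathione to reactive or foreign molecules. In filamentous fungi these enzymes are known from responses to oxidants, from secondary metabolism and from spores, which carry their own catalases in Aspergillus.

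Library depth was 3.10 to 7.60 megareads, lowest in the flbA deletion library. Levels are the deposited RPKM, reads scaled to the kilobase of coding length and to the megareads placed in the library. A gene was kept when its mean over the 10 libraries was at least 1 RPKM, which held for 9134 genes and for 30 of the 31 described here. A difference is the log2(RPKM + 1) of a deletion library less that of wild type, and a gene was counted when this passed 2-fold. The median gene of the flbA deletion library lay 0.64 below wild type on this scale (a difference of -0.64), and 27.9% of its reads fell on 1 unnamed gene (PDE_06605). The other shifts ran from -0.40 to 0.12, so counts are also given after median-of-ratios scaling, which moves the median gene to about zero. On the log2 scale it adds 0.73 to the levels of the flbA, 0.41 to those of the flbB and 0.40 to those of the flbE deletion library against wild type, and -0.10 to 0.29 in the other six, so folds in the flbA library depend on it most. A gene named FlbD (PDE_03008) had 327 RPKM in the library labelled flbD deletion, against 341 RPKM in wild type, and the TEA-family gene PDE_02932, the family of AbaA, had 59.1 RPKM in the library labelled abaA deletion, against 28.5 RPKM in wild type. Both go against the labels, so statements about them hold for the libraries as labelled. SOK2 (PDE_04095), of the StuA family, had 1 read in the stuA deletion library against 3725 in wild type, and chromobox protein 1 (PDE_08896), of a family with fission yeast Swi6, had 1 read in the swi6 deletion library against 164 in wild type. The pairing of PDE_02932, PDE_04095 and PDE_08896 with a label by family was made with values known. 4 genes matched the patterns set for conidia (2 named BrlA and 2 scytalone dehydratases). Their summed level was 0.249 to 281 RPKM over the deletion libraries, against 1531 RPKM in wild type, and the 3 that were kept were at least 2-fold lower in each deletion library, or 2 of the 3 in the flbB and wetA libraries after median-of-ratios scaling. In bulk RNA, fewer cells of a type and less RNA per cell cannot be told apart. The marker sum was lowest in the flbA (0.249), stuA (3.64) and swi6 (30.2 RPKM) libraries. The part of these markers in the results was not tested.

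The set stood higher than wild type in the flbA, stuA and flbC deletion libraries. In the flbA deletion library 12 of the 30 kept genes were at least 2-fold higher, where 9.80% of all genes were, and 4 were at least 2-fold lower, where 37.4% of all genes were. In the stuA deletion library 10 were higher and 0 lower, against 13.3% and 14.6% of all genes. In the flbC deletion library 9 were higher and 0 lower, against 14.6% and 8.85% of all genes. The swi6 deletion library had 5 higher and 0 lower, against 11.0% and 11.9% of all genes. In median-of-ratios scaling these counts of higher and lower genes became 18 and 2 for flbA (20.6% and 23.5% of all genes), 14 and 0 for stuA (16.0% and 11.9%), 7 and 1 for flbC (12.9% and 10.1%) and 6 and 0 for swi6 (13.7% and 9.72%). The 11 glutathione S-transferases, all among the 30 kept genes, are the largest role of the set. Before that scaling they gave 5 of the 12 higher genes for flbA, which is near their share of the set. They gave 6 of the 10 for stuA, 5 of the 9 for flbC and 4 of the 5 for swi6. In median-of-ratios scaling no further transferase became 2-fold higher in these libraries. They were thus a smaller part of the 18 higher genes for flbA and the 14 for stuA.

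The library labelled flbD deletion had 5 higher and 2 lower, where 11.7% and 12.7% of all genes were. The flbE deletion library had 3 and 3, against 10.9% and 21.2% of all genes. The flbB deletion library had 2 and 4, against 12% and 23.0%. The library labelled abaA deletion had 2 and 2, against 15.2% and 12.3%. The wetA deletion library had 1 higher and 5 lower, against 13.8% and 20.9% of all genes. In median-of-ratios scaling the splits became 6 and 2 for flbE (16.1% and 11.8% of all genes), 4 and 3 for flbB (17.6% and 13.0%) and 3 and 5 for wetA (18.3% and 15.0%), and stayed at 5 and 2 for the library labelled flbD (14.2% and 9.91%) and 2 and 2 for that labelled abaA (14.9% and 12.4%).

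The median gene of the set, read against the median of all kept genes in the same library, lay above it in all 9 comparisons. The distance was 1.35 (log2) in the flbA, 0.88 in the stuA, 0.46 in the swi6 and 0.42 in the flbC deletion library. It was 0.35 in the library labelled flbD deletion, 0.34 for flbE, 0.20 in the library labelled abaA, 0.14 for flbB and 0.02 for wetA. All 9 values share the wild-type library. For flbB, wetA and the library labelled abaA they are smaller than the median counting half-width of a single gene there (0.27, 0.28 and 0.25). With each library set against the median of its 9 companions they were -0.28, -0.42 and -0.33. By that reference the values for flbA, swi6, flbE and the library labelled flbD were lower too, but still positive. In all, 7 of the 9 values moved by more than this single-gene half-width, which is not the error of a set median. A set median above that of all genes in all 9 comparisons therefore holds only against wild type.

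**Figure D1:**
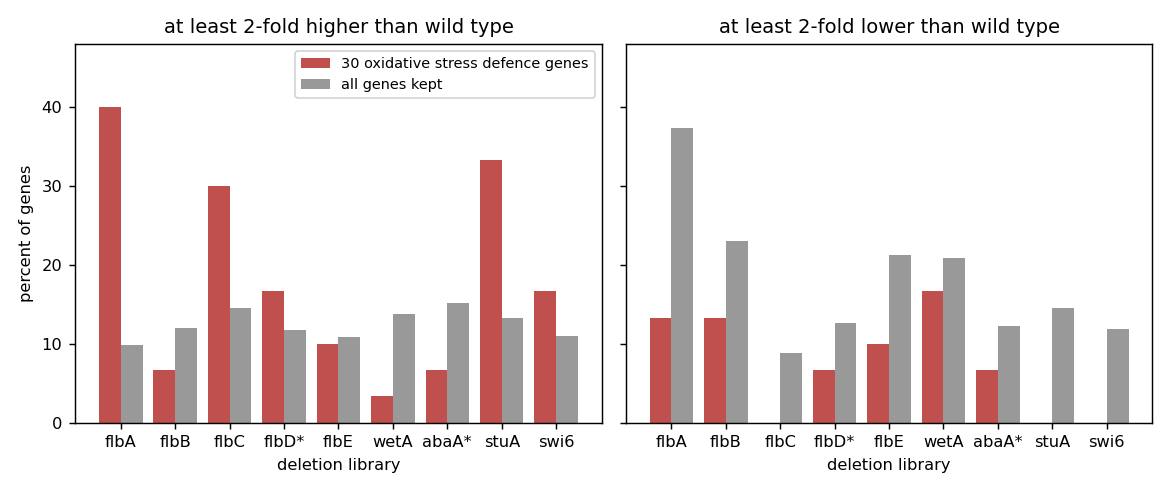
Share of genes at least 2-fold higher (left) or lower (right) than wild type in each deletion library, in percent, for the 30 kept oxidative stress defence genes (red) and all 9134 kept genes (grey). An asterisk marks a library whose label was not borne out. The red bars for higher genes exceed the grey ones most in the flbA, stuA and flbC libraries (12, 10 and 9 genes), and no gene of the set was 2-fold lower in the flbC, stuA and swi6 libraries.

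23 of the 30 genes were at least 2-fold from wild type in some deletion library, against 73.8% of all genes, and 7 were under 2-fold in all 9, against 26.2% of all genes, so both counts lie near the shares of all genes. After median-of-ratios scaling they became 27 and 3, against 68.8% and 31.2% of all genes. No gene of the set was 2-fold higher in all 9 or 2-fold lower in all 9 (1.28% and 2.23% of all genes were). 5 genes had a level above wild type in every deletion library, against 7.61% of all genes: glutaredoxin 3 (PDE_02685), a glutathione S-transferase (PDE_05029), a catalase (PDE_05708), thioredoxin reductase (PDE_08354) and peroxiredoxin Q (PDE_09082). Glutathione reductase (PDE_00554) alone was below wild type in all 9, against 17.9% of all genes. These counts became 8 above and 0 below in median-of-ratios scaling, against 14.4% and 12.3% of all genes.

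The flbA, stuA and flbC deletion libraries together held the highest level of most genes of the set, and the lowest levels were spread more widely. The flbA deletion library held the highest of the 10 libraries for 10 of the 30 genes and the lowest for 7, against 10.5% and 42.4% of all genes. The stuA deletion library held the highest for 9 and the lowest for 1, against 10.4% and 6.93%, and the flbC deletion library the highest for 7 and the lowest for 3, against 19.7% and 2.04%. The wetA deletion library held the highest for 0 and the lowest for 6, against 7.02% and 7.37% of all genes. The flbB deletion library held 1 and 5 (3.13% and 11.9%), the library labelled flbD 1 and 0 (3.13% and 1.19%), that labelled abaA 1 and 1 (14.3% and 1.22%), the flbE 0 and 1 (2.61% and 6.93%) and the swi6 deletion library 0 and 1 (11.3% and 9.91%). Wild type held the highest for 1 and the lowest for 5, against 17.9% and 7.61%.

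After median-of-ratios scaling the flbA deletion library held the highest for 15 and the lowest for 3 (25.9% and 26.9% of all genes), and the wetA deletion library the highest for 0 and the lowest for 9 (9.66% and 8.48%). The stuA deletion library then held 8 and 1 (11.0% and 10%), the flbC deletion library 3 and 4 (7.38% and 7.88%) and wild type 0 and 8 (12.3% and 14.4%).

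**Figure D2:**
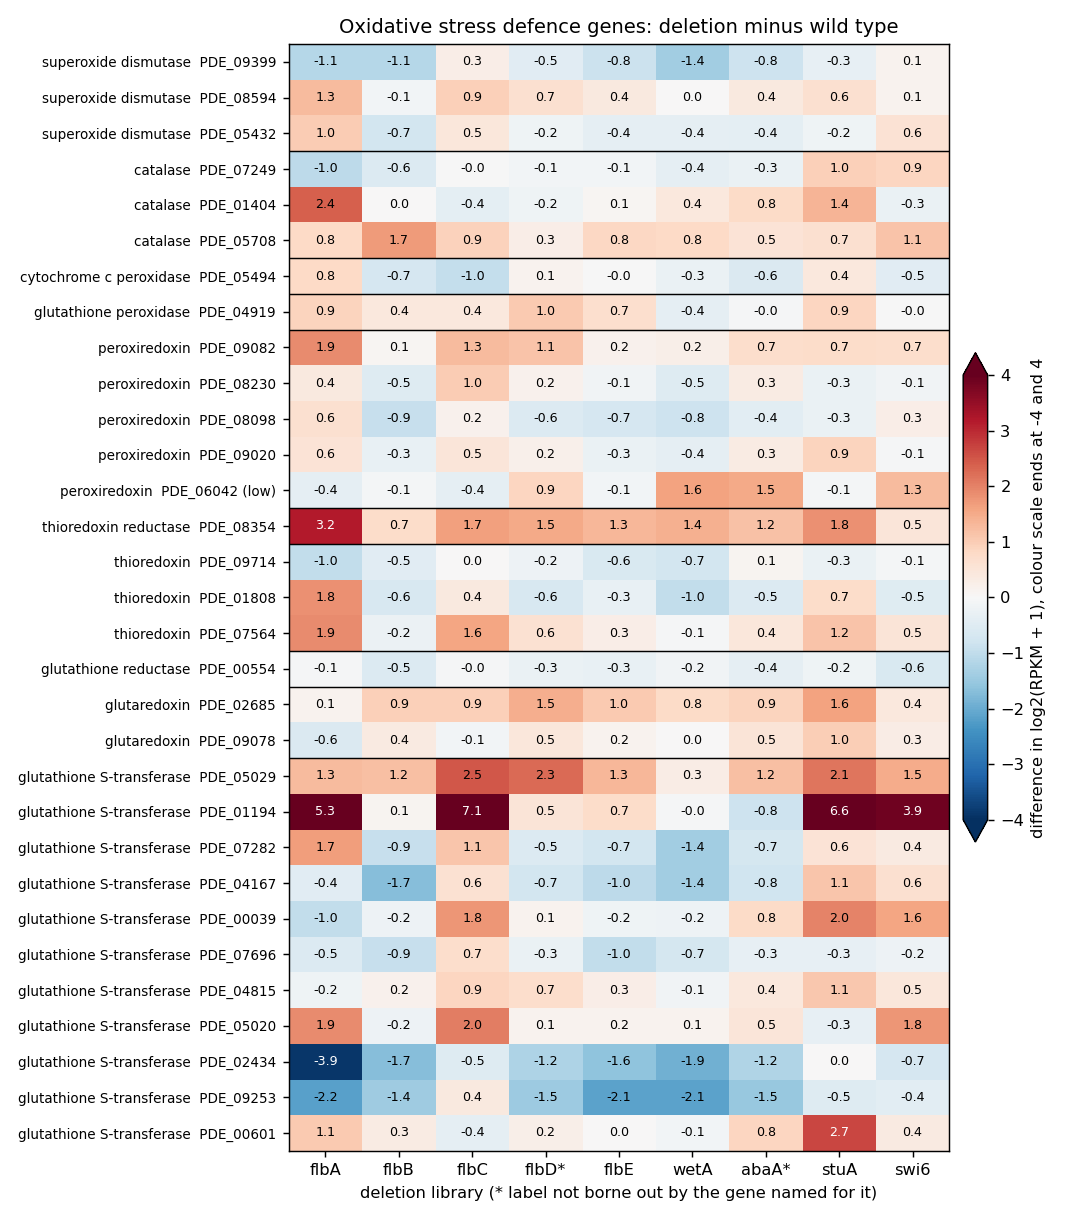
Difference in log2(RPKM + 1), deletion minus wild type, for the 31 genes (rows, by role and then by mean level) in the 9 deletion libraries (columns). Red is higher and blue lower than wild type, the colour scale ends at -4 and 4, "low" marks the gene removed by the filter, and asterisks mark labels not borne out. PDE_01194 is the darkest row, with 5.32, 7.14, 6.61 and 3.89 in the flbA, flbC, stuA and swi6 libraries.

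Superoxide dismutases are the entry to the pathway, and in the flbA deletion library the Cu-Zn and Fe-Mn types went opposite ways. The Cu-Zn enzyme (PDE_09399), in other fungi the dismutase of the cytosol, was the most abundant of its role by mean level. Its level was 709 RPKM in the flbC, 648 in the swi6, 471 in the stuA, 329 in the flbE, 269.9 in the flbB, 267 in the flbA and 223 in the wetA deletion library. It was 432 RPKM in the library labelled flbD and 333 in that labelled abaA deletion, against 592 RPKM in wild type. It was 2.65-fold lower (2.42 to 2.91) in the wetA, 2.22-fold lower (1.98 to 2.49) in the flbA and 2.19-fold lower (2.01 to 2.39) in the flbB deletion library. In median-of-ratios scaling the flbA and flbB differences shrank to -0.42 and -0.72 (log2) and the wetA difference stayed past 2-fold at -1.11.

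The Fe-Mn family includes the manganese dismutases of mitochondria. PDE_08594 had 228 RPKM in the flbA and 183 in the flbC deletion library and 88.5 to 150.2 RPKM in the other seven, against 94.9 RPKM in wild type. It was 2.40-fold higher (2.08 to 2.77) in the flbA deletion library, the only one past 2-fold. PDE_05432 had 87.8 RPKM in the flbA, 64.3 in the swi6 and 59.2 in the flbC deletion library and 25.6 to 38.4 RPKM in the other six, against 43.0 RPKM in wild type. It was 2.04-fold higher (1.68 to 2.48) in the flbA deletion library, an interval that reaches below 2-fold. Within a library, where scaling cancels, PDE_08594 stood at 0.854 of the Cu-Zn level (0.746 to 0.979) in the flbA deletion library and at 0.160 (0.142 to 0.181) in wild type. The range in the other eight was 0.161 (swi6) to 0.432 (wetA).

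The superoxide dismutase left out by the rule, PDE_00326, bears on any sum. It had 3541 RPKM in the flbA deletion library, against 5.80 RPKM in wild type, so the summed level of this role in the flbA library was 583 RPKM without it and 4124 RPKM with it. In wild type the sums were 730.0 and 736 RPKM.

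Catalases break down hydrogen peroxide, and the 3 genes of this role followed 3 different orders. The catalase-peroxidase (PDE_07249), a bifunctional heme enzyme, carried most of the role's level. It had 1099 RPKM in the deletion library of stuA and 1029 in that of swi6. It had 558 RPKM in the flbC, 523 in that of flbE, 443 in that of wetA, 387 in the flbB and 276 in the flbA deletion library, and 526 and 469 RPKM in the libraries labelled flbD and abaA, against 567 RPKM in wild type. The stuA and swi6 libraries lay just under 2-fold above wild type, at 1.94-fold (1.88 to 2.00) and 1.82-fold (1.76 to 1.87), and passed it after median-of-ratios scaling (1.14 and 1.05, log2). The flbA library was 2.05-fold lower (1.95 to 2.16), or -0.31 (log2) in median-of-ratios scaling.

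Catalase PDE_01404 ran the other way in the flbA deletion library. Its level was 96.7 RPKM there, 46.6 in the stuA, 23.9 in the wetA, 18.5 in the flbE, 17.9 in the flbB, 14.4 in the swi6 and 13.3 in the flbC deletion library, and 31.0 and 15.4 RPKM in the libraries labelled abaA and flbD, against 17.6 RPKM in wild type. It was 5.49-fold higher (4.68 to 6.46) in the flbA deletion library, where it stood more than 2-fold above every other library, and 2.64-fold higher (2.26 to 3.11) in the stuA deletion library. Such genes, at least 1 log2 unit above all other libraries, were 2.09% of all genes in the flbA library. Its level was 0.351 of the catalase-peroxidase level (0.320 to 0.383) in the flbA deletion library, 0.0140 to 0.0660 in the other deletions and 0.0311 (0.0269 to 0.0358) in wild type.

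The other catalase (PDE_05708) was weakly expressed, at 5.94 to 17.9 RPKM in the deletion libraries, against 4.78 RPKM in wild type. It was highest in the flbB deletion library, 3.75-fold above wild type (2.79 to 5.12), and 2.43-fold higher (1.77 to 3.39) in the swi6 deletion library. In the library labelled flbD deletion it was 1.24-fold higher with an interval of 0.883 to 1.77, which spans equality. In median-of-ratios scaling the flbA (1.47, log2), flbE (1.18) and wetA (1.06) libraries passed 2-fold as well.

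**Figure D3:**
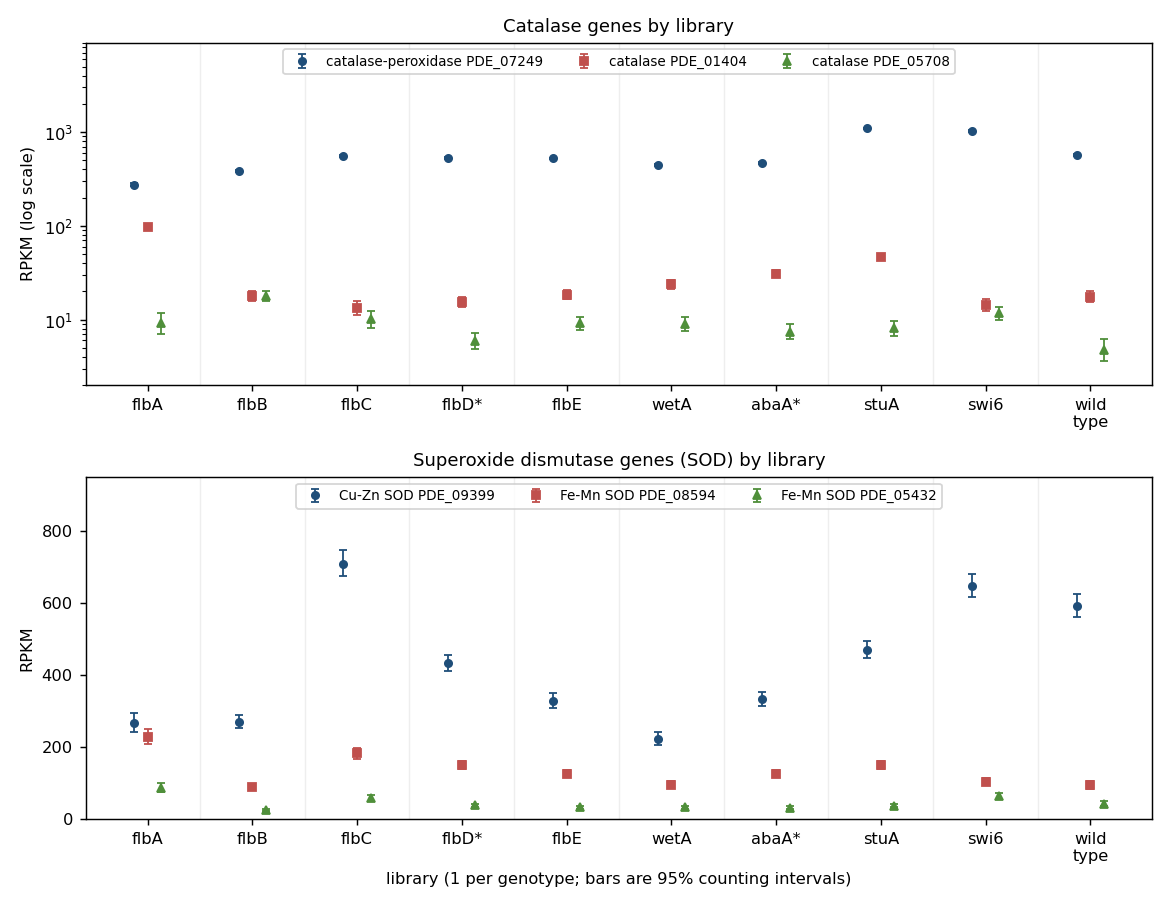
RPKM of the 3 catalase genes (top, log scale) and the 3 superoxide dismutase genes (bottom) in each library, with wild type at the right. Points are single libraries, bars are 95% counting intervals, and asterisks mark labels not borne out. In the flbA library catalase-peroxidase PDE_07249 is at its lowest (276 RPKM) and catalase PDE_01404 at its highest (96.7 RPKM), while the Cu-Zn dismutase (267) and the Fe-Mn dismutase PDE_08594 (228 RPKM) nearly meet.

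Among the peroxidases that draw on other electron donors, cytochrome c peroxidase (PDE_05494), a mitochondrial enzyme in yeast, stayed under 2-fold throughout. It had 325 RPKM in the flbA, 252 in the stuA, 185 for flbE, 154 for wetA, 135 in the swi6, 115 in the flbB and 95.8 in the flbC deletion library, and 206 and 125 RPKM in the libraries labelled flbD and abaA, against 186 RPKM in wild type. The flbA library was 1.74-fold higher (1.60 to 1.90) and the flbC library 1.95-fold lower (1.74 to 2.18). In median-of-ratios scaling both passed 2-fold, at 1.52 and -1.06 (log2).

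Glutathione peroxidase (PDE_04919), a thiol-driven enzyme that reduces peroxides, ranged from 104 RPKM in the wetA deletion library to 276 RPKM in the library labelled flbD deletion, against 134 RPKM in wild type. The library labelled flbD was 2.06-fold higher (1.84 to 2.32), the flbA 1.85-fold (1.61 to 2.12) and the stuA 1.83-fold higher (1.62 to 2.06). The wetA library was 1.29-fold lower (1.12 to 1.48). In median-of-ratios scaling 4 libraries were past 2-fold, with flbA highest (1.60, log2), then that labelled flbD (1.22), flbE (1.05) and stuA (1.05).

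Peroxiredoxins are thiol peroxidases that work with thioredoxin or glutathione, and 5 genes carry the name. For PDE_08098 the annotated functions are peroxidase activity and heme binding, as for cytochrome c peroxidase (PDE_05494), so its name is in doubt. Of the 5, the Q/BCP type (PDE_09082) had the highest mean level and the largest differences. It had 169 RPKM in the flbA, 110.0 in the flbC, 76.4 for stuA, 73.6 for swi6, 53.0 for wetA, 51.0 for flbE and 48.0 in the flbB deletion library, and 101 and 74.5 RPKM in the libraries labelled flbD and abaA, against 45.1 RPKM in wild type. It was 3.75-fold higher (3.13 to 4.50) in the flbA, 2.44-fold (2.03 to 2.93) in the flbC and 2.24-fold (1.89 to 2.67) in the library labelled flbD deletion. In the flbB, flbE and wetA libraries its interval spanned equality (0.873 to 1.30, 0.932 to 1.37 and 0.967 to 1.43).

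The other kept genes named peroxiredoxin varied less. The atypical type PDE_08230 was past 2-fold in the flbC deletion library, with 106 RPKM against 52.1 RPKM in wild type (2.04-fold, 1.66 to 2.52), or 0.91 (log2) in median-of-ratios scaling. PDE_08098 ran from 24.2 RPKM in the flbB to 72.8 RPKM in the flbA deletion library, against 46.8 RPKM in wild type, and PDE_09020 from 16.5 RPKM in the wetA to 40.7 RPKM in the stuA deletion library, against 21.7 RPKM in wild type. In median-of-ratios scaling all 4 kept genes of this name were past 2-fold in the flbA deletion library. Their differences were 1.12 (PDE_08230), 1.26 (PDE_09020), 1.34 (PDE_08098, the name in doubt) and 2.60 (PDE_09082). The fifth, PDE_06042, was the gene removed by the filter. It had 13 reads in the wetA library, 13 in that labelled abaA, 8 in the swi6, 7 in that labelled flbD, 1 each in the flbB, flbE and stuA and 0 in the flbA and flbC deletion libraries, against 1 read in wild type.

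Thioredoxin reductase (PDE_08354), the flavoenzyme that passes electrons from NADPH to thioredoxin, exceeded wild type in all 9 deletions and was past 2-fold in 7 of them, or 8 after median-of-ratios scaling. Its level was 289.8 RPKM in the flbA, 115 in the stuA, 101 in the flbC, 85.9 for wetA, 81.4 for flbE, 52.6 in the flbB and 45.0 in the swi6 deletion library, and 91.6 and 72.2 RPKM in the libraries labelled flbD and abaA, against 31.5 RPKM in wild type. The flbA library stood 9.20-fold above wild type (7.79 to 10.9) and more than 2-fold above the next library, stuA. Elsewhere the fold ran from 1.43 (1.17 to 1.75) in the swi6 to 3.64 (3.08 to 4.33) in the stuA deletion library.

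The 3 thioredoxins, small proteins that reduce disulfides, split in the flbA deletion library. PDE_01808 had 928 RPKM in the flbA, 427 in the stuA, 336 in the flbC, 212 in the flbE, 184 in the swi6, 167 in the flbB and 130.2 in the wetA deletion library, and 178 and 166 RPKM in the libraries labelled abaA and flbD, against 259 RPKM in wild type. It was 3.58-fold higher (3.20 to 4.03) in the flbA deletion library, more than 2-fold above every other library. PDE_07564 had 617 RPKM in the flbA, 499.5 in the flbC, 369 in the stuA, 237 in the swi6, 197 for flbE, 159 for wetA and 142 in the flbB deletion library, and 251 and 225 RPKM in the libraries labelled flbD and abaA, against 165 RPKM in wild type. It was 3.73-fold higher (3.30 to 4.22) in the flbA, 3.02-fold (2.68 to 3.41) in the flbC and 2.23-fold (1.99 to 2.51) in the stuA deletion library.

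PDE_09714 is the most abundant thioredoxin in wild type, at 472 RPKM, and the third in the flbA deletion library, at 240.3 RPKM. It was 1.96-fold lower there (1.72 to 2.24), or -0.25 (log2) in median-of-ratios scaling, and ran from 282 RPKM in the wetA deletion library to 514 RPKM in the library labelled abaA. It was under 2-fold in all 9 comparisons. The order of the 3 thioredoxins within a library does not depend on scaling: PDE_01808 led in the flbA and stuA libraries, PDE_07564 was at 499.5 RPKM beside 481 RPKM for PDE_09714 in the flbC library, and PDE_09714 led in the other seven.

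Glutathione reductase (PDE_00554), which keeps glutathione reduced with NADPH, had the narrowest range of RPKM in the set. It had 100.4 RPKM in the swi6, 105 in the flbB, 124 in the flbE, 135 in the stuA, 137 in the wetA, 146 in the flbA and 148 in the flbC deletion library, and 119 and 126 RPKM in the libraries labelled abaA and flbD, against 152 RPKM in wild type. The whole range was 1.52-fold. In the flbA and flbC libraries the interval against wild type spanned equality (0.952 to 1.14 and 0.947 to 1.11, as folds lower). In median-of-ratios scaling the sign turned in the flbA (0.66), flbE (0.10), wetA (0.14) and stuA (0.02) libraries. Its differences then ran from -0.40 (swi6) to 0.66 (flbA), a wider range than the -0.45 to 0.12 of thioredoxin PDE_09714.

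Both reductases draw on NADPH, and their ratio within a library is free of scaling. This pair was chosen after the values were seen. Thioredoxin reductase stood at 1.98 times the glutathione reductase level (1.8 to 2.19) in the flbA deletion library, at 0.849 (0.780 to 0.924) in the stuA, 0.682 in the flbC, 0.655 for flbE, 0.627 for wetA, 0.502 in the flbB and 0.448 in the swi6 deletion library, and at 0.727 and 0.607 in the libraries labelled flbD and abaA. In wild type it stood at 0.207 (0.175 to 0.243). The flbA library was the only one in which thioredoxin reductase exceeded glutathione reductase.

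Glutaredoxins are thioredoxin-like proteins that glutathione reduces. Glutaredoxin 3 (PDE_02685) was the most abundant gene of the set by mean level. It had 1281 RPKM in the stuA, 860.2 for flbE, 808 for flbB, 807 for flbC, 717 for wetA, 563 in the swi6 and 459 in the flbA deletion library, and 1162 and 777 RPKM in the libraries labelled flbD and abaA, against 420.3 RPKM in wild type. It was 3.05-fold higher (2.80 to 3.32) in the stuA, 2.76-fold (2.54 to 3.01) in the library labelled flbD and 2.05-fold (1.87 to 2.24) in the flbE deletion library. The flbA library had the smallest difference, 1.09-fold (0.966 to 1.23). After median-of-ratios scaling the swi6 library had the smallest (0.62, against 0.85 for flbA, log2), and the flbB (1.35) and wetA (1.06) libraries passed 2-fold. The monothiol glutaredoxin PDE_09078, of a family tied to iron-sulfur clusters in yeast, ran from 55.7 RPKM in the flbA to 167 RPKM in the stuA deletion library, against 84.1 RPKM in wild type, and stayed under 2-fold (1.99-fold higher in the stuA library, 1.69 to 2.34), which the stuA library passed in median-of-ratios scaling (1.17, log2).

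**Figure D4:**
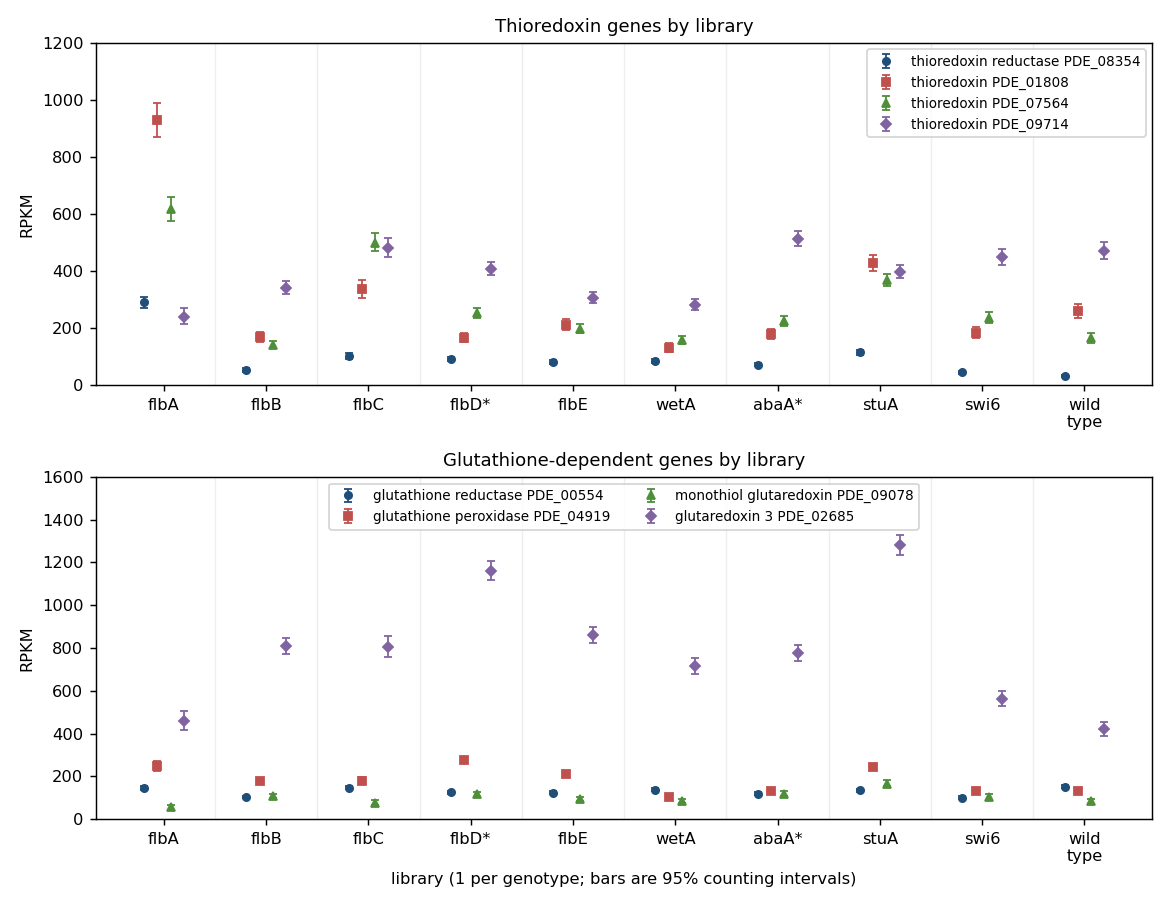
RPKM of thioredoxin reductase and the 3 thioredoxins (top) and of glutathione reductase, glutathione peroxidase and the 2 glutaredoxins (bottom) in each library, with wild type at the right. Points are single libraries, bars are 95% counting intervals, and asterisks mark labels not borne out. Thioredoxin PDE_01808 reaches 928 RPKM and thioredoxin reductase 289.8 RPKM in the flbA library, where glutaredoxin 3 (459 RPKM) is near wild type (420.3 RPKM), and glutathione reductase stays between 100.4 and 152 RPKM.

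The 11 glutathione S-transferases include the gene with the largest differences. Their summed level was 1917 RPKM in the flbC, 1540.2 in the stuA, 913 in the flbA, 897 in the swi6, 476 in the flbE, 431 in the flbB and 319 in the wetA deletion library, and 753 and 528 RPKM in the libraries labelled flbD and abaA, against 499 RPKM in wild type. In the stuA deletion library 6 of the 11 were at least 2-fold higher and 0 lower (13.3% and 14.6% of all genes). The counts were 5 and 0 for flbC (14.6% and 8.85%), 5 and 2 for flbA (9.80% and 37.4%) and 4 and 0 for swi6 (11.0% and 11.9%). They were 1 and 3 for flbB (12% and 23.0%), 1 and 3 for flbE (10.9% and 21.2%) and 0 and 4 for wetA (13.8% and 20.9%). The library labelled flbD had 1 and 2 (11.7% and 12.7%), and so had that labelled abaA (15.2% and 12.3%). These counts hold for RPKM, and median-of-ratios scaling changes some calls. In the flbE library the difference of PDE_04167 went from -1.04 to -0.66 (log2).

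PDE_01194 is the transferase with the largest differences. It was near silent in wild type, with 13 reads and 3.69 RPKM, and low in 5 deletion libraries. These had 1.66 RPKM (8 reads) in the library labelled abaA, 3.54 in the wetA, 4.03 in the flbB, 5.77 in the library labelled flbD and 6.84 RPKM in the flbE deletion library. PDE_01194 had 659 RPKM (2003 reads) in the flbC, 457 RPKM (2224 reads) in the stuA, 186 RPKM (395 reads) in the flbA and 68.5 RPKM (263 reads) in the swi6 deletion library. The fold over wild type was 179 (104 to 336) in the flbC, 124 (72.3 to 233) in the stuA, 50.4 (29.2 to 95.6) in the flbA and 18.6 (10.7 to 35.4) in the swi6 deletion library. The 2 sides were formed from these same levels. In counting error alone they do not touch: the lower bound of the swi6 level is 60.5 RPKM and the upper bound of the flbE level 9.56 RPKM. The spread between cultures is not in these bounds. The flbE and abaA-labelled libraries differed from wild type by intervals that span equality (0.954 to 3.83 higher and 0.853 to 6.18 lower). In median-of-ratios scaling the flbE difference was 1.09 (log2), past 2-fold, on 34 reads. The gene made up 34.4% of the summed level of the role in the flbC, 29.7% in the stuA, 20.4% in the flbA and 7.64% in the swi6 deletion library, and 0.739% in wild type. Without it the sums were 1258, 1083, 726 and 828 RPKM, against 495 RPKM in wild type, so the sums stayed above wild type there without this gene.

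PDE_05029 was the most abundant transferase by mean level and was past 2-fold in 8 of 9 deletions. Its level was 509 RPKM in the flbC, 404 in the stuA, 257 in the swi6, 228 in the flbE, 217 in the flbA, 209.9 in the flbB and 111 in the wetA deletion library, and 435 and 208 RPKM in the libraries labelled flbD and abaA, against 90.5 RPKM in wild type. The fold was 5.62 (5.01 to 6.32) in the flbC, 4.80 (4.29 to 5.38) in the library labelled flbD and 4.46 (3.99 to 5.01) in the stuA deletion library. The wetA library, at 1.23-fold (1.07 to 1.41), was the exception. This gene led the role in wild type and in every library except flbA, flbC and stuA.

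Some transferases shared parts of the pattern of PDE_01194. PDE_00039 had 132 RPKM in the stuA, 113 in the flbC and 101 in the swi6 deletion library, against 32.7 RPKM in wild type, but 16.1 RPKM in the flbA deletion library. PDE_05020 had 82.5 RPKM in the flbC, 73.3 in the flbA and 68.1 in the swi6 deletion library, against 19.2 RPKM in wild type, but 15.1 RPKM in the stuA deletion library, its lowest. PDE_07282 had 270.1 RPKM in the flbA and 181 in the flbC deletion library and 31.6 RPKM in the wetA deletion library, against 84.2 RPKM in wild type. Its folds were 3.21 higher (2.79 to 3.69), 2.15 higher (1.87 to 2.48) and 2.66 lower (2.18 to 3.26), and the flbC difference was just under 2-fold in median-of-ratios scaling (0.99, log2). PDE_00039, PDE_05020 and PDE_07282 were chosen after their values were seen, as were the other genes of the set that the rule in the methods does not name. The loci PDE_05020 and PDE_05029 have numbers 9 apart, with 8 genes of the table between them, and their levels lay apart in the stuA library (15.1 against 404 RPKM).

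The transferases PDE_02434, PDE_09253 and PDE_04167 lay below wild type in most deletions. PDE_02434 had 3.03 RPKM (8 reads) in the flbA, 14.6 in the wetA, 17.4 in the flbB, 18.4 in the flbE, 36.4 in the swi6, 40.1 in the flbC and 59.4 in the stuA deletion library, and 24.1 and 24.7 RPKM in the libraries labelled flbD and abaA, against 58.3 RPKM in wild type. It was 19.3-fold lower (9.64 to 45.1) in the flbA deletion library, more than 2-fold below every other library, and equal to wild type within counting error in the stuA library (1.02-fold, 0.866 to 1.20). Genes standing that far below all other libraries were 13.8% of all genes in the flbA library. PDE_09253 was 5.18-fold lower (2.69 to 11.2) in the flbA, 5.05-fold (3.18 to 8.31) in the flbE and 5.02-fold lower (3.11 to 8.42) in the wetA deletion library, with 25.8 RPKM in wild type. It had 34.4 RPKM in the flbC deletion library, 1.33-fold higher (0.989 to 1.8). PDE_04167 was 3.38-fold lower (2.59 to 4.45) in the flbB deletion library but 2.19-fold higher (1.86 to 2.58) in the stuA deletion library, with 24.8 and 184 RPKM, against 83.9 RPKM in wild type.

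PDE_00601 was weakly expressed, with 18.3 RPKM (88 reads) in the stuA deletion library and 1.33 to 5.25 RPKM in the other eight, against 2.01 RPKM (7 reads) in wild type. It stood apart in the stuA deletion library, 9.11-fold higher (4.24 to 23.3), as 1.75% of all genes did there. Its count as 2-fold higher in the flbA deletion library rests on 11 reads (2.61-fold, 0.923 to 7.94). PDE_04815 was past 2-fold only in the stuA library (2.15-fold higher, 1.77 to 2.64), with 78.7 RPKM against 36.6 RPKM in wild type. PDE_07696 stayed under 2-fold in all 9, from 31.2 RPKM in the flbE to 102 RPKM in the flbC deletion library, against 62.0 RPKM in wild type.

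**Figure D5:**
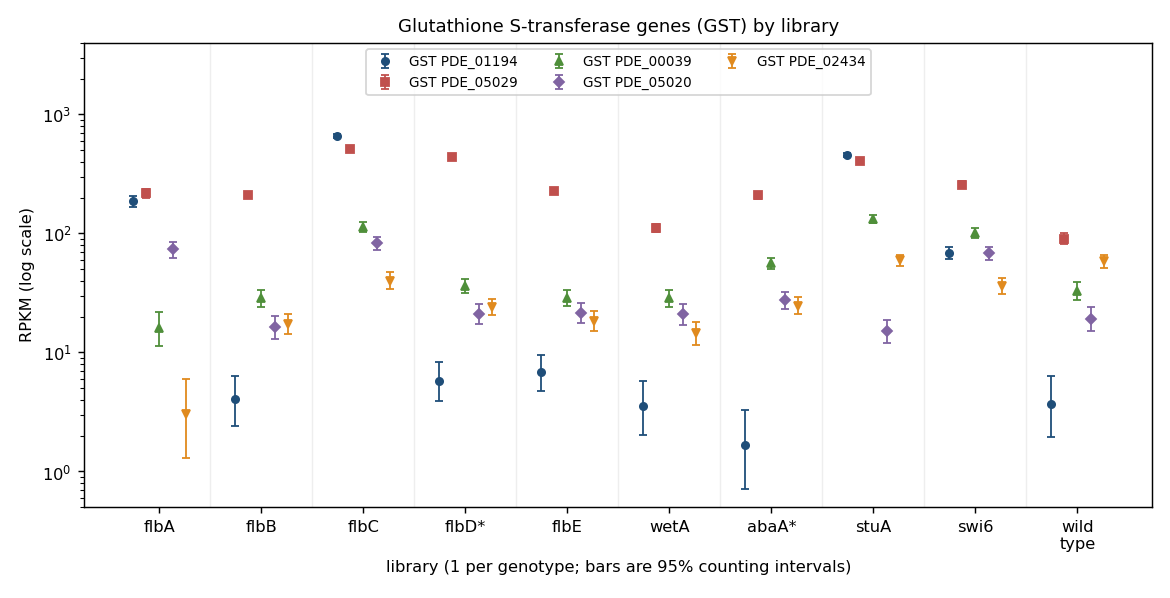
RPKM (log scale) of 5 glutathione S-transferase genes in each library, with wild type at the right. Points are single libraries, bars are 95% counting intervals, and asterisks mark labels not borne out. PDE_01194 sits at 68.5 to 659 RPKM in the flbA, flbC, stuA and swi6 libraries and at 1.66 to 6.84 RPKM in the other five deletions, with 3.69 RPKM in wild type.

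Genes around the pathway were read from lists of related annotation. Of 6 genes of the pentose phosphate route, a main source of NADPH, 4 were at least 2-fold higher and 0 lower in the flbA deletion library (9.80% and 37.4% of all genes). In median-of-ratios scaling the counts there were 5 and 0 (20.6% and 23.5%). Transaldolase (PDE_09398) had 1385 RPKM there, against 361 RPKM in wild type (3.84-fold higher, 3.63 to 4.06), and transketolase (PDE_00194) 488 RPKM, against 125 RPKM (3.90-fold, 3.66 to 4.17). Transketolase was lower in others, by 3.51-fold in the flbB (3.16 to 3.89), 2.61-fold in the swi6 (2.36 to 2.89) and 2.52-fold in the wetA deletion library (2.30 to 2.77). In no other library were more than 1 of the 6 at least 2-fold higher. The dehydrogenases of the list differed among themselves before median-of-ratios scaling. In the flbA deletion library 6-phosphogluconate dehydrogenase PDE_08859 had a difference of 1.77 (log2) and glucose-6-phosphate 1-dehydrogenase (PDE_01924) 0.61, under 2-fold. PDE_08816, also named 6-phosphogluconate dehydrogenase, ran from 0.07 to 0.85 over the deletion libraries. These dehydrogenases were chosen with their values known.

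Enzymes that make superoxide or peroxide were mostly lower in the same library. Of 13 oxidases, 11 were at least 2-fold lower and 1 higher in the flbA deletion library, where 37.4% and 9.80% of all genes were, or 9 and 1 in median-of-ratios scaling (23.5% and 20.6%). The NADPH oxidase gene (PDE_08125), whose family makes superoxide at the membrane, stood 6.49-fold lower there (5.49 to 7.73), at 28.7 RPKM against 187 RPKM in wild type, and a primary-amine oxidase (PDE_03901) 18.2-fold lower (13.6 to 25.0), at 7.04 RPKM against 128 RPKM. In the swi6 deletion library NADPH oxidase was 1.64-fold higher (1.55 to 1.75). The flbE library had 7 of 13 lower (21.2% of all genes), or 2 in median-of-ratios scaling (11.8%). The flbC and stuA libraries had 3 higher and 1 lower each, against 14.6% and 8.85% of all genes for flbC and 13.3% and 14.6% for stuA.

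Of 6 genes of glutathione synthesis and turnover, 0 were 2-fold higher and 3 lower in the flbA deletion library, against 9.80% and 37.4% of all genes, or 2 and 2 in median-of-ratios scaling (20.6% and 23.5%). In each other library at most 2 were higher and 1 lower. The catalytic subunit of glutamate-cysteine ligase (PDE_02034), the committed step, had 35.1 to 75.5 RPKM in the deletion libraries, against 38.8 RPKM in wild type. A gamma-glutamyltranspeptidase (PDE_04490) was 7.07-fold lower (4.57 to 11.5) in the flbA and 3.59-fold higher (3.14 to 4.12) in the flbE deletion library.

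Of 5 genes that use glutathione to remove formaldehyde and methylglyoxal, 3 were at least 2-fold higher and 0 lower in the swi6 deletion library in both scalings, against 11.0% and 11.9% of all genes, or 13.7% and 9.72% in median-of-ratios scaling. S-(hydroxymethyl)glutathione dehydrogenase (PDE_03064) had 713 RPKM there, against 138 RPKM in wild type (5.15-fold higher, 4.78 to 5.56). A lactoylglutathione lyase (PDE_08647) had 312 RPKM, against 63.0 RPKM in wild type (4.95-fold higher, 4.28 to 5.74). The flbA deletion library had 4.75 RPKM of it, 13.3-fold lower (7.07 to 28.0). A hydroxyacylglutathione hydrolase (PDE_04388) had 103 RPKM in the swi6 deletion library, against 138 RPKM in wild type, and was chosen with its values known.

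Of 12 genes from sulphate to cysteine and cystathionine, 1 to 3 were 2-fold higher and 0 to 5 lower in each deletion library, where 9.80% to 15.2% of all genes were higher and 8.85% to 37.4% lower. In median-of-ratios scaling 2 to 5 were higher and 0 to 2 lower. Cystathionine gamma-lyase (PDE_00928), which yields cysteine, had 124 to 320.5 RPKM in the deletion libraries other than flbA, which had 45.3 RPKM, against 47.8 RPKM in wild type. A cystathionine gamma-synthase (PDE_04106) had 0.584 RPKM in the flbA and 0.765 RPKM in the stuA deletion library, against 192.5 RPKM in wild type. It was lower by 329.7-fold (113 to 1601) for flbA and 252-fold (132 to 552) for stuA. Of the 2 genes for repair of methionine sulphoxide, the peptide form (PDE_05265) was 3.48-fold higher (2.99 to 4.06) in the stuA deletion library, with 218 RPKM against 62.6 RPKM in wild type. The free-methionine form (PDE_04638) had 82.5 to 129.9 RPKM in the flbB, flbE and wetA deletion libraries and those labelled flbD and abaA, and 6.13 RPKM in the swi6 deletion library, against 21.3 RPKM in wild type.

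The pattern for redox regulators matched 6 genes, of which 2 are subunits of the AP-1 clathrin adaptor and 1 (PDE_03261) is AATF/BFR2, a ribosome assembly factor in yeast, none of them known redox regulators. An ATF/CREB factor (PDE_04903), of a family with stress regulators in fission yeast, was 1.74-fold lower (1.55 to 1.97) in the flbA deletion library, near equal there in median-of-ratios scaling (-0.08), and 1.53 to 3.02-fold higher in the other eight. PDE_03261 was 3.38-fold higher (2.81 to 4.09) in the stuA deletion library, with 55.3 RPKM against 16.4 RPKM in wild type. The fungal AP-1-like factor (PDE_03264), the yeast Yap1 family that induces thioredoxin and peroxide-removing genes there, had 122 to 253 RPKM in the deletion libraries, against 115 RPKM in wild type, and was chosen after its values were seen. It was 1.76-fold higher (1.61 to 1.91) in the flbA and 1.07-fold higher (0.980 to 1.16) in the swi6 deletion library, or 1.53 and 0.28 (log2) in median-of-ratios scaling, which takes the flbA library past 2-fold. SKN7 (PDE_08232), a two-component response regulator that in yeast acts with Yap1 on oxidative stress genes, was likewise chosen after its values were seen. It had 17.1 RPKM in the flbA deletion library and 28.6 to 41.3 RPKM in the other eight, against 33.3 RPKM in wild type. It was 1.95-fold lower (1.57 to 2.42) in the flbA deletion library, or -0.23 (log2) in median-of-ratios scaling.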

How the data were processed

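Per the file headers, the deposited table holds for every library each gene's count of reads placed once, its RPKM and the percent of its length covered. CASAVA 1.8 was used per the submitters' processing notes, and the sources used here do not give the aligner, genome build or annotation. Counts summed to the total in the header in all 10 libraries, and the deposited RPKM matched reads over length and total within a relative gap of 2.57e-08. A dash was read as 0. The lengths are multiples of 3 for 9856 genes, so they are coding lengths. The percent covered was used only to check the labels.

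Differences used a pseudocount of 1 RPKM and a filter at a mean of 1 RPKM (725 genes removed). With 1 library per genotype no test was run. Folds divide one RPKM by the other, with a 95% Clopper-Pearson interval conditional on the reads of both libraries, and levels have exact Poisson intervals, both for counting error only, and reads carry no molecular identifiers. The median-of-ratios factors came from 8608 genes with reads in all libraries. Named genes were, in each role, the highest by mean RPKM, the most different, and those to 1 side past 2-fold in all 9 or standing at least 1 log2 unit from all other libraries, and in each related list the highest and the most different. Genes and lists were chosen with earlier results of these data known. No sequence of this organism is printed. Python 3.11.15, pandas 2.3.3, NumPy 2.4.6 and SciPy 1.17.1 were used, and the calculations were tested on simulated data.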

Additional observations from a re-analysis of the deposited data

How the results depend on the processing

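No paired analysis was possible because each genotype has 1 library. Pseudocounts of 0.1 and 5 and a filter at a mean of 5 RPKM left all counts of genes past 2-fold within 1.5 times, and without a filter the wetA deletion library had 2 higher genes. A pseudocount of 5 took the relative median of the flbA deletion library to 1.01. Median-of-ratios scaling moved 7 of 22 counts: lower genes to 2 in the flbA and 1 in the flbC library, higher genes to 4 (flbB), 6 (flbE) and 3 (wetA), and the genes above or below wild type in all 9 to 8 and 0. Genes under 2-fold in all 9 became 3, against 7. All 9 relative medians moved by less than the median counting half-width of a single gene. They cannot test this scaling, which adds nearly the same amount on the log2 scale to every gene of a library. Requiring the whole counting interval past 2-fold gave 2 lower genes for flbA, 3 higher and 1 lower for the library labelled flbD, and 1 and 1 for that labelled abaA.

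With each library set against the median of its 9 companions, higher genes were 11 (flbA), 11 (flbC), 9 (stuA) and 5 (swi6), within 1.5 times, and 0 in the other five. Lower genes were then 2 (flbA), 1 (flbB), 0 (labelled flbD), 0 (flbE), 2 (wetA) and 1 (labelled abaA). The counts above or below in all 9 were 0 and 0, which this reference fixes whatever the data. The lowest deletion library cannot exceed the median of its companions, nor the highest lie below it. Relative medians became 1.04 (flbA), -0.28 (flbB), 0.00665 (labelled flbD), 0.0308 (flbE), -0.42 (wetA), -0.33 (labelled abaA) and 0.14 (swi6). The cause of the moves in the other values was not tested. The counts over all deletions stayed at 5 above and 1 below without the flbA library. They also did so without the libraries labelled flbD and abaA, a choice made after seeing the data. Leaving libraries out can only keep or raise these counts, so it could not have weakened them. Of 144 RPKM ratios of the 16 named genes, median-of-ratios scaling took 82 and leaving out the most abundant gene 18 outside their counting interval. None that was past 2-fold changed direction, but neither step could turn one, since both shift a library by less than 2-fold. The shallow flbA library limits genes with few reads, such as PDE_02434 (8 reads).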
